A study of Mus musculus with 8 samples.

Results

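The 5568 H2A.Z peaks described here were called in Znhit1-CKO testis and had no counterpart in control testis. They were chosen by comparing 2 deposited peak lists: a Znhit1-CKO peak was kept where it overlapped no control peak by even 1 bp. They are 17.9% of the 31156 Znhit1-CKO peaks (exact 95% interval 17.4 to 18.3%), among 79908 peaks in both lists. The other 25588 Znhit1-CKO peaks overlapped a control peak and are called shared, and 24732 of the 48752 control peaks overlapped no Znhit1-CKO peak and are called control-only.

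The study asked where H2A.Z lies in the testis when ZNHIT1 is missing, using chromatin immunoprecipitation with an H2A.Z antibody followed by sequencing. Its 8 libraries form 4 groups of 2 replicates, an immunoprecipitate and an input for each genotype, all from testis cells at postnatal day 14. The genotypes are control and Znhit1-CKO, a conditional knockout that the protocol calls Znhit1-sKO. The allele, the Cre driver, the strain and any allele that the control testes carried were not given in the sources used here. Each library is stated to exceed 30000000 reads, and the depth of each cannot be read from lists of positions. There was 1 peak list per genotype, so no difference below was tested against the spread between animals. All comparisons describe the 2 lists, and the intervals cover counting error only.

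H2A.Z is a variant of histone H2A that replaces it in some nucleosomes, mostly next to transcription start sites and at enhancers. The SRCAP complex, of which ZNHIT1 is a subunit, and the TIP60 complex place it, and INO80 and ANP32E take it out. Start sites in CpG islands, stretches rich in the dinucleotide CG, usually carry H2A.Z. A testis at this age holds spermatogonia, spermatocytes in meiotic prophase and the somatic Sertoli, Leydig, peritubular, endothelial and immune cells.

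Some of the peaks covered a start site that had no other H2A.Z peak. The 250 bases before such a start are printed 5′ to 3′ for 5 genes, from the RefSeq promoters of GRCm38.p6, whose coordinates are those of mm10. H2az1, which encodes H2A.Z.1 and whose promoter had a peak in both lists, is added as a CG-rich promoter with H2A.Z. Capitals mark each CG dinucleotide, so the contrast in CG number can be read from the letters. At C1qtnf7, Pcolce and Gsta3 the listed start lies inside the annotated gene, so part of the window does too.
C1qtnf7, chr5:43515319-43515568, plus strand: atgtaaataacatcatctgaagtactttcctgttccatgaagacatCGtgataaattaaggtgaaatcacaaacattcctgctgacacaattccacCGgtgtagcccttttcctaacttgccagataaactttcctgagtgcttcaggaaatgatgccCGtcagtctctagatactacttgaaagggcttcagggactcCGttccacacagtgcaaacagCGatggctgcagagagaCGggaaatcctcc
Nr0b1, chrX:86191525-86191774, plus strand: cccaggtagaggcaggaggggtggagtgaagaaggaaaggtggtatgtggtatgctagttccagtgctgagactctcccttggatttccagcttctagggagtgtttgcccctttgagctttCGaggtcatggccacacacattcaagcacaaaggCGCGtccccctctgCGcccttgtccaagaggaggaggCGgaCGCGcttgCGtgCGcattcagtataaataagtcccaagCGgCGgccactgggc
Pcolce, chr5:137611405-137611654, minus strand: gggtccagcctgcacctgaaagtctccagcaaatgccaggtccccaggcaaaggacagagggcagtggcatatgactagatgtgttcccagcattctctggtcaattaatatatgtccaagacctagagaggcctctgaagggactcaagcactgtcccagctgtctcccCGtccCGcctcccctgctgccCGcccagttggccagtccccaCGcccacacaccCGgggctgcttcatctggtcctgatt
Gsta3, chr1:21240335-21240584, plus strand: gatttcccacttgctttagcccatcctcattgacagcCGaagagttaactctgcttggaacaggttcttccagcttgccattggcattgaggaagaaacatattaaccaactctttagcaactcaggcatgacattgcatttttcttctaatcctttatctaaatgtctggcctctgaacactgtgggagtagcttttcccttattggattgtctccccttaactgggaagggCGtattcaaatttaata
Enpp3, chr10:24836196-24836445, minus strand: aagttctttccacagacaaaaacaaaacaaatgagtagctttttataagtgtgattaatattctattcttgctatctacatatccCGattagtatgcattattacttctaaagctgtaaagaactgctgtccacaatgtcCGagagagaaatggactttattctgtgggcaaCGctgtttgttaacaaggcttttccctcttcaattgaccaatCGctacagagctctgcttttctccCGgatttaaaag
H2az1, chr3:137864237-137864486, plus strand: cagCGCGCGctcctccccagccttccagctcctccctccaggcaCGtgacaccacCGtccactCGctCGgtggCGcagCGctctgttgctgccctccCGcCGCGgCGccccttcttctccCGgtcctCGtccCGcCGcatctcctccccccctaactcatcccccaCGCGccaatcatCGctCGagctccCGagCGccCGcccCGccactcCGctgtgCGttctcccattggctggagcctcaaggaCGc

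The H2az1 window held 28 CG dinucleotides and an observed-over-expected CpG ratio of 1.04, where 1 is the number that its C and G content alone would give. The 5 windows under Znhit1-CKO peaks held fewer: 6 at C1qtnf7, 11 at Nr0b1, 5 at Pcolce, 2 at Gsta3 and 5 at Enpp3. Their ratios were 0.484, 0.546, 0.238, 0.184 and 0.598 in that order. The peak covered all 250 bases at Gsta3 and Enpp3, 173 at Nr0b1, 161 at Pcolce and 70 at C1qtnf7.

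The same contrast held over all promoter windows in the table, each from 250 bases before to 50 bases after a start. The 164 windows (152 genes) with a Znhit1-CKO peak that had no control counterpart, and no other peak, had a median CpG ratio of 0.238 (quartiles 0.160 and 0.354). The median was 0.780 in 13649 windows with a shared peak (quartiles 0.608 and 0.920). It was 0.465 in 2690 windows with a control peak and no Znhit1-CKO peak, and 0.183 in 16341 windows with no peak. The ratio of the 250 bases printed for H2az1 lies above the upper quartile of the shared windows, so H2az1 overstates the usual contrast. Median G+C content was 51.7% in the 164 windows and 62.3% under shared peaks. In CpG content these promoters lay nearer to those with no H2A.Z peak than to those with a shared one. By the rule, windows with a control or shared peak could not be among the 164. The contrasts in CpG content, and in the motifs below, are therefore not independent of the choice.

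Short letter motifs were counted on both strands in the same 300-base windows. GGGCGG, the GC box bound by Sp-family factors, was in 23 of the 164 windows (14.02%, 9.10 to 20.3%), against 67.5% under shared peaks and 35.7% of all 32851 windows. CCGGAAGT, an ETS-family motif, was in 6 (3.66%, 1.35 to 7.79%), against 8.15% and 3.89%. CACGTG, the E-box, was in 7 (4.27%), against 10.5% and 7.15%. TGACTCA, the AP-1 motif, was also in 7 (4.27%), against 2.99% and 5.20%. In windows with no peak the shares were 8.68% for GGGCGG, 0.392% for CCGGAAGT, 4.17% for CACGTG and 7.14% for TGACTCA. The first 2 of these lay below the intervals of the 164 windows, whose shares in those motifs lay between the shared and no-peak promoters. Some of the 164 are overlapping windows of the same gene, so they are not independent and the intervals are too narrow. For GGGCGG the no-peak share lay close to the lower bound, so that difference is not secure. No 2 of these letter strings contain one another. The share with a GC box was the one of the 4 that stood apart from all windows by more than its interval.

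The Znhit1-CKO peaks with no control counterpart were narrow. Their width ran from 188 to 1634 bp, with a median of 345 bp and quartiles of 263 and 468 bp, and together they covered 2.17 Mb. The median was 795 bp for shared Znhit1-CKO peaks and 516 bp for control-only peaks. The narrowest width in the Znhit1-CKO list was 188 bp, and 90 of the 121 peaks of that width were among those described here. In the control list the narrowest was 205 bp. By width, 2039 peaks (36.6%) were under 300 bp, 2387 (42.9%) had 300 to under 500 bp, 1098 (19.7%) had 500 to under 1000 bp and 44 (0.790%) had 1000 bp or more. Of all Znhit1-CKO peaks under 300 bp 53.1% had no control counterpart, and of those of 1000 bp or more 0.456% had none. A wide peak has more bases that can meet a control peak, so width and membership are not independent.

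**Figure D1:**
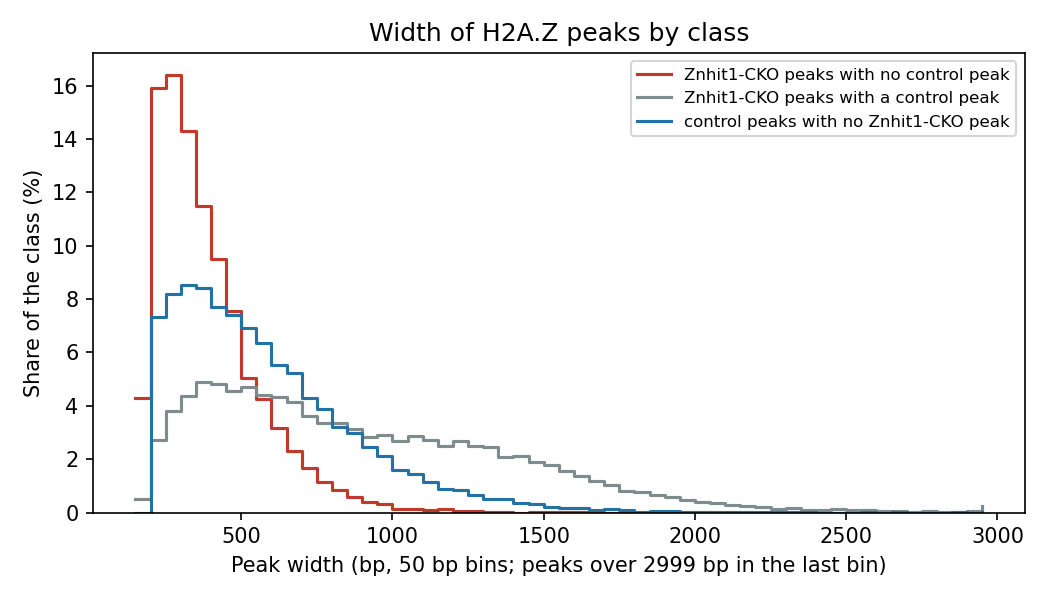
Width of H2A.Z peaks in bp (50 bp bins) against the share of each class in percent, with 1 line for each class: Znhit1-CKO peaks with no control peak, Znhit1-CKO peaks with one, and control peaks with no Znhit1-CKO peak. The first class has its median at 345 bp and the other 2 at 795 and 516 bp.

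The widest of them, 1634 bp, began 74 bp inside C1qtnf7, a gene for a secreted C1q-domain protein (chr5:43515499-43517132). The nearest control peak was 44916 bp away. The second, 1597 bp, lay inside Col28a1, a collagen gene (chr6:8028415-8030011). The third, 1507 bp, lay inside Tdrd5, which encodes a Tudor protein of the piRNA pathway (chr1:156284217-156285723), 17624 bp from the nearest protein-coding start. The fourth, 1503 bp, lay in the long noncoding RNA gene 4933400C23Rik (chr9:92718715-92720217), 110286 bp from Plod2, a lysyl hydroxylase gene. Of the next 11, which were 1217 to 1466 bp wide, 2 overlapped a protein-coding gene: Fam71b (1350 bp) and Bckdhb (1246 bp), a subunit gene of branched-chain ketoacid dehydrogenase. The other 9 lay nearest to Mid1, Pabpc6, Gfi1, Gm44812, Armc4, Chd2, Sfr1, Cables1 and Hnrnpll. Among the 15 widest, those near Plod2 and Cables1 overlapped a differential region. The widest peaks were thus spread over gene bodies, noncoding genes and sequence between genes.

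Few of the peaks lay next to a protein-coding gene end. Of the 5568, 310 (5.57%, 4.98 to 6.20%) lay within 1 kb of either end, against 51.9% of shared Znhit1-CKO peaks and 11.01% of control-only peaks. Another 2150 (38.6%, 37.3 to 39.9%) lay inside a protein-coding gene away from its ends, where the shares were 20.3% of shared and 30.1% of control-only peaks. A further 678 (12.2%) touched only another annotated gene, and 2430 (43.6%) touched none. That last share was 19.5% for shared peaks and 43.9% for control-only peaks. Those outside protein-coding genes had a median distance of 30188 bp to the nearest one, against 17997 bp for shared and 35854 bp for control-only peaks. A control peak stood at an end of 67.7% of protein-coding genes, and by the rule none of the peaks can overlap a control peak. The contrasts at gene ends are thus not independent of the choice. Exons and introns were not separated, since the gene table used here gives gene ends only.

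Start sites gave the same order, with the same limit from the rule. Within 1 kb of a protein-coding start lay 191 of 5372 peaks (3.56%, 3.08 to 4.09%), against 46.0% of shared and 7.35% of control-only peaks. The peak covered the start base in 60 of the 191. The centres were split about evenly, 97 before and 94 after the start. The median distance to the nearest start was 46962.5 bp, against 3640.5 bp for shared peaks and 45545 bp for control-only peaks.

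Among peaks of 300 to under 500 bp, compared so that width is alike, the order at gene ends was the same. The limit from the rule holds here too. There 5.70% (4.80 to 6.70%) of the peaks with no control counterpart lay within 1 kb of a protein-coding gene end, against 27.4% (26.1 to 28.7%) of shared and 9.15% (8.53 to 9.81%) of control-only peaks. The share overlapping a protein-coding gene at all was 42.0% (40.0 to 44.0%), against 47.4% (46.0 to 48.8%) and 35.9% (34.8 to 37.0%). In that width group fewer of the peaks were within 1 kb of a gene end than in either other class. In overlap with genes, ends included, they lay between the other classes.

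**Figure D2:**
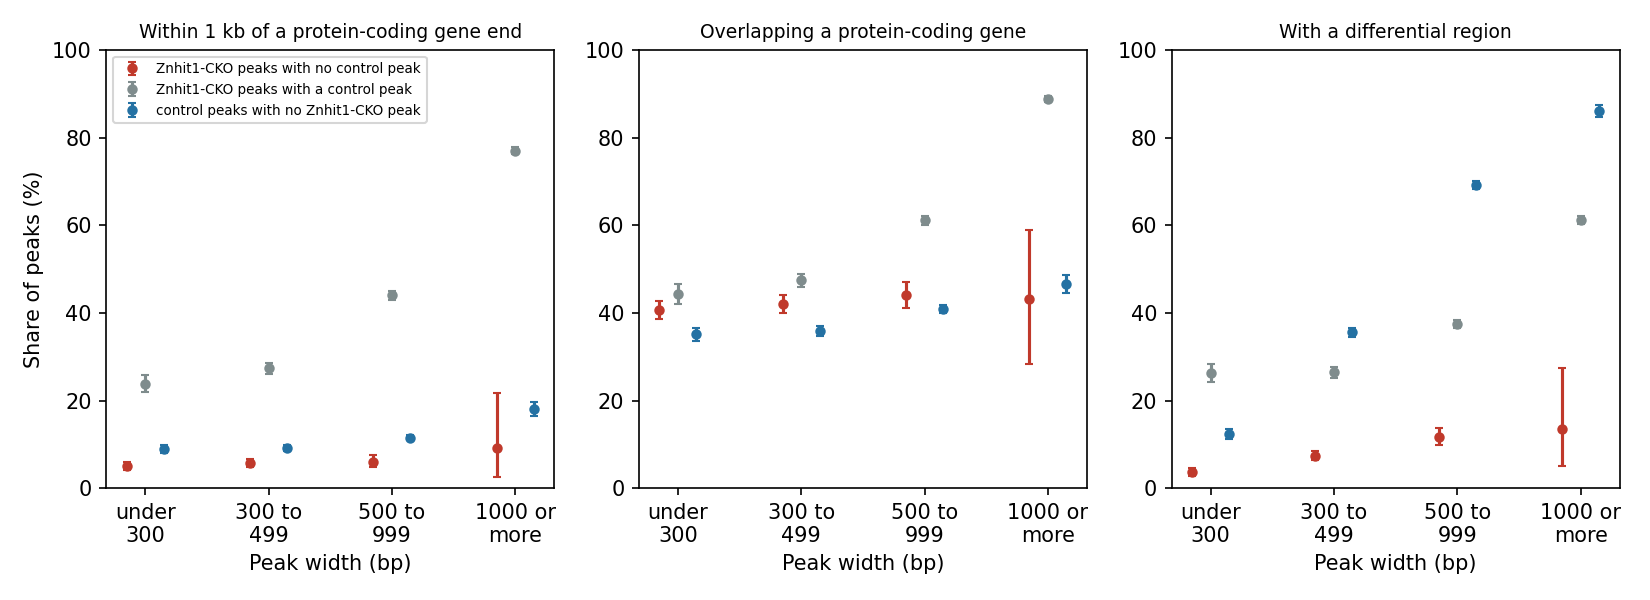
Share of peaks in percent (vertical axis) by peak width in bp (horizontal axis) for the 3 peak classes. The panels give peaks within 1 kb of a protein-coding gene end, peaks overlapping a protein-coding gene and peaks with a differential region; bars are exact 95% intervals. Among peaks of 300 to under 500 bp, 5.70% of Znhit1-CKO peaks with no control peak were at a gene end, against 27.4% of those with one.

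Most of the peaks were not at the edge of a control peak. The median gap to the nearest control peak was 9040.5 bp, with quartiles of 2622.8 and 24516 bp. The gap was at most 500 bp for 501 peaks (8.998%), at most 1000 bp for 808 (14.5%) and at most 10000 bp for 2933 (52.7%), and over 100000 bp for 258 (4.63%). For control-only peaks the median gap to the nearest Znhit1-CKO peak was 19670 bp, with 4.43% at most 500 bp away and 7.63% at most 1000 bp away. The Znhit1-CKO list is the shorter of the 2, so these gaps are not on equal terms.

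**Figure D3:**
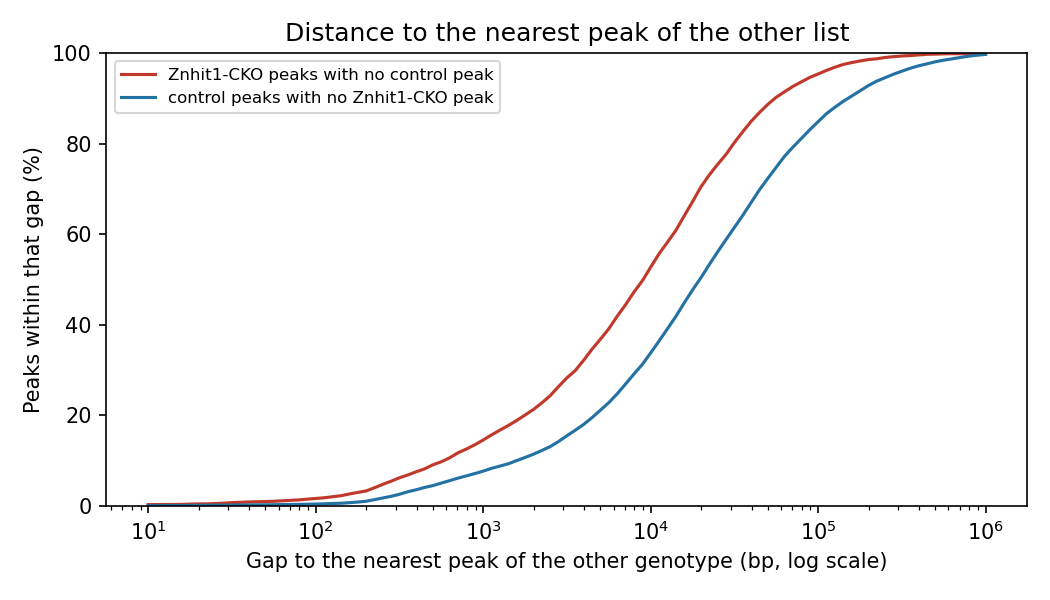
Gap to the nearest peak of the other genotype in bp (log scale) against the share of peaks within that gap in percent. One line is Znhit1-CKO peaks with no control peak, whose median gap is 9040.5 bp, and the other is control peaks with no Znhit1-CKO peak, whose median gap is 19670 bp.

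The threshold itself can be read from the peaks beside it. Just inside the rule, 3 peaks abutted a control peak with no base between: 269 bp wide at 126098 bp from Tfap2d, 253 bp inside Mga, and 237 bp at 174011 bp from Topaz1. Just outside it, a 209 bp peak inside Sdk2 and a 312 bp peak near Zfp46 overlapped a control peak by 1 bp each, and a 576 bp peak inside Pde11a by 2 bp. Membership of these 6 peaks differed by a few bases of overlap.

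Peaks close to a control peak differed in place from those far away. At a gap of at most 500 bp, 88 of 501 (17.6%, 14.3 to 21.2%) were within 1 kb of a protein-coding gene end. At a gap over 50000 bp the number was 8 of 633 (1.26%, 0.547 to 2.48%). Of all control peaks 31.1% were themselves within 1 kb of a protein-coding gene end. Nearness to a control peak and nearness to a gene end are therefore not independent. Width did not follow the gap: the median was 341 bp in the nearest group and 340 bp in the farthest, and 345 to 353 bp in the groups between. The nearest control peak itself overlapped some other Znhit1-CKO peak in 51.8% of cases, against 49.3% of all control peaks. For the nearest control peak the share was 55.7% at a gap of at most 500 bp and 40.8% over 50000 bp.

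The peaks farthest from a control peak were on the sex chromosomes. All 4 on the Y chromosome lay at 90732124 to 90744749, and the last control peak on the Y ended at 1287102. One X peak of 617 bp (chrX:126225051-126225667) was 3120812 bp from a control peak, and another of 375 bp, with Dmd as nearest gene, was 1239311 bp away. On autosomes, peaks of 258 bp nearest to Flrt2, 196 bp nearest to Cntnap5a and 614 bp nearest to Hs3st1 were 878873, 869462 and 779666 bp away. None of these had a differential region.

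The deposited differential regions met few of the peaks. Of the 5568, 385 (6.91%, 6.26 to 7.61%) overlapped one of the 24367 regions, against 37% of all Znhit1-CKO peaks and 48.9% of all control peaks. It was 43.5% of shared and 51.2% of control-only peaks. The regions compare the same libraries that chose the peaks, so these shares are not independent of the choice, and the deposited list gives no direction or p-value. Among peaks of 300 to under 500 bp the share was 7.37%, against 26.5% of shared and 35.6% of control-only peaks. It was 3.68% under 300 bp, 11.7% at 500 to under 1000 bp and 13.6% at 1000 bp or more.

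The 385 peaks fell on 384 regions, 1 of which also touched a control peak. Over both lists, 597 regions lay on no control peak, and 383 of them lay on a peak described here. The 385 peaks had a median width of 415 bp, against 341 bp for the rest, and a median gap to a control peak of 11874 bp, against 8784 bp. Of them 10 were at a protein-coding gene end and 163 (42.3%) overlapped a protein-coding gene.

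The 10 widest with a region were near or in genes of varied function. After those near Plod2 (1503 bp) and Cables1 (1236 bp) came a 1128 bp peak 45675 bp from Ahi1, a cilium gene, and a 1105 bp peak in Nme7, of the nucleoside diphosphate kinase family. A 1081 bp peak lay in Ptprr, a tyrosine phosphatase gene, a 1028 bp peak 14763 bp from Lsm6, which acts in RNA decay and splicing, and a 989 bp peak near Zfp429. A 979 bp peak lay in Dct, a melanin synthesis gene, a 908 bp peak in Scube2, and a 905 bp peak in Grm4. None of these, leaving out that near Cables1, whose distance was not taken, lay within 1 kb of a protein-coding start site.

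Grm4, the gene for a metabotropic glutamate receptor (chr17:27422387-27513826), had more of the peaks with a differential region around it than any other place, counted in windows of 1 Mb. In 90.6 kb that covers sequence beside it and its lower-coordinate part (chr17:27355861-27446489), there were 14 of the peaks, 201 to 905 bp wide. A differential region lay on 11 of the 14. The stretch held 1 control peak, 692 bp wide (chr17:27414966-27415657), whose edge was 11 bp from one of the 14, and 0 shared peaks. It held 12 differential regions, 11 on these peaks and 0 on the control peak. This stretch was chosen after its values were seen.

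Elsewhere in the genome 374 of 5554 peaks (6.73%) had a differential region. The 1 Mb window that holds Grm4 had 18 of the peaks, 12 of them with a region, and no other window had more than 3 with a region. Of the 6 peaks inside Grm4 itself, 4 had a region. Grm4 had no entry in the promoter table, so its start site and strand were not used here. The peaks beside the gene, from 27422059 to 27422278 and from 27422628 to 27422929, lay on either side of its lower-coordinate end. Both had a differential region.

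**Figure D4:**
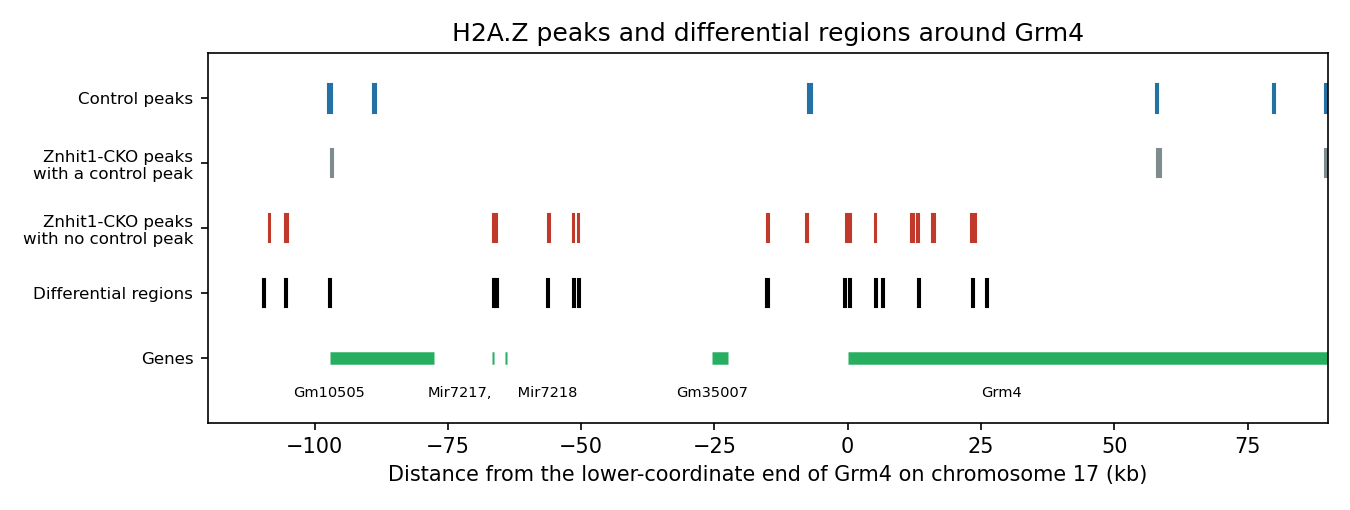
H2A.Z peaks, differential regions and genes along chromosome 17, as distance in kb from the lower-coordinate end of Grm4. Rows give control peaks, Znhit1-CKO peaks with and without a control peak, differential regions and annotated genes, each drawn to scale with a thin outline. From the stretch beside Grm4 into the gene, 14 Znhit1-CKO peaks face 1 control peak, and 12 differential regions lie there.

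Apart from such places the peaks were scattered. Joined where gaps were at most 10 kb, 4667 stood alone, 358 runs had 2 and 55 runs had 3 or more, which held 185 peaks (3.32%). The median gap between neighbours was 193 kb. Of the 8 runs of 4 or more, 2 were those beside and in Grm4, with 5 of 5 and 6 of 9 peaks on a differential region. A run of 9 at the end of the X had 0. A run of 5 on chromosome 5 (chr5:124041287-124050089) overlapped the noncoding gene Gm34086, and 2 of its peaks shared a region. A run of 4 in Faim2, an apoptosis inhibitor gene, had 2 with a region.

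One of the peaks lay within 1 kb of an end in 0.977% (0.506 to 1.70%) of 1228 microRNA genes. That interval held the share of protein-coding genes, 1.45%. Of 1005 hairpins with a sequence in the RefSeq table, 11 lay within 1 kb of one of the peaks, and 4 were overlapped: Mir802, Mir7214, Mir6715 and Mir3109. The mature forms of these 4 are printed because the peak overlaps the hairpin, and those of Mir7217 because it is the hairpin next to the Grm4 stretch. Capitals mark the seed, bases 2 to 8, which pairs with target transcripts.
mmu-miR-802-5p: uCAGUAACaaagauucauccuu
mmu-miR-802-3p: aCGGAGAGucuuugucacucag
mmu-miR-7214-3p: cUCAGUCCugaccccuugagcgca
mmu-miR-6715-5p: aCAGGCACcacagguuugagcau
mmu-miR-6715-3p: cCAAACCAggcgugccugugg
mmu-miR-3109-5p: aAUGGAUGcgaugguucccaugcu
mmu-miR-3109-3p: uAGGGCCAucucauccagaua
mmu-miR-7217-5p: aACUUGUAucuugugagacagaagg
mmu-miR-7217-3p: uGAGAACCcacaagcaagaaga

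The 19 mature sequences of the 11 hairpins had 19 distinct seeds, so they form no seed family. Mir802 (chr16:93369720-93369816) met a peak of 395 bp, 16180 bp from a control peak. Mir7214 (chr17:27317035-27317095) lay inside a peak of 535 bp, and Mir7217 (chr17:27355738-27355799) lay 61 bp from a peak of 247 bp. The last 2 peaks lie on the lower-coordinate side of Grm4 and had a differential region. The peaks at the other 9 hairpins had none. Mir100, a widely conserved miRNA gene, lay 930 bp from a peak of 261 bp.

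At gene ends, 317 of 21887 protein-coding genes (1.45%) had a peak with no control counterpart within 1 kb. In 204 of them a control or shared peak was also at an end. In 113 no control or shared peak was at either end. Of the 113, the peak, or the wider where there were 2, was at the start in 64, at the other end in 26 and at an end of unknown strand in 23. A differential region lay on the peak in 5 of the 113.

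The genes with the widest such peaks had varied roles. C1qtnf7 had 1634 bp and Fam71b 1350 bp, the latter 338 bp from the end of transcription. Wfdc1, a secreted protease inhibitor family gene, had 979 bp, and Nek6, a mitotic kinase gene, had 817 bp starting 421 bp inside it. Nr0b1, an X-linked nuclear receptor gene of gonad and adrenal development, had 802 bp over its start, 162661 bp from a control peak. Pla1a, a phospholipase gene, had 801 bp and Fmo4, a flavin monooxygenase gene, 797 bp. Pcolce, whose product helps procollagen maturation, and Fbxo24, an F-box gene, shared 1 peak of 754 bp.

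Pbld1 had 719 bp over its start. Serpinb1b, a serine protease inhibitor gene, had 699 bp beginning 845 bp inside its start, and a second peak of 205 bp 75 bp before it. Txk, a kinase gene of T cells, and Ctla4, an inhibitory receptor gene of T cells, had 704 and 682 bp at their ends, not their starts. Enpp3, an ectonucleotidase gene, had 650 bp at its start. Gsta3, a glutathione transferase gene, had 640 bp over its start. It was the one of these 15 genes with a differential region.

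Inside genes, 1740 of 21887 (7.95%) held at least 1 of the peaks. Of these 1352 held 1, 365 held 2 to 4 and 23 held 5 or more. The share rose with gene length: 0.972% of genes under 10 kb, 4.45% at 10 to 30 kb, 11.5% at 30 to 100 kb, 27.8% at 100 to 300 kb and 48.5% over 300 kb. Per Mb of gene the numbers were 2.43, 2.54, 2.59, 2.44 and 1.70 peaks in the same order. Longer genes thus held more peaks, and not more per Mb.

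Several long genes held 6 or more of the peaks. Among those described here, which are not a full ranking, Cmss1 held 7, of 226 to 723 bp, and Filip1l, which overlaps it, 6. Adamtsl1, Akap6, Arhgef28, Auts2, Creb5, Grm4, Maml3, Sugct and Zbtb20 also held 6 each. Grm4 had 6.56 peaks per 100 kb, against 0.543 to 2.73 in the other 10 genes named here. Among these 11 genes, 4 of the Grm4 peaks had a differential region, 2 in Cmss1 and Filip1l, and 1 each in Creb5 and Zbtb20.

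Genes grouped by all peaks at their ends, those described here included, differed in how often a described peak lay inside them. It was 9.27% (8.78 to 9.78%) of 13104 genes with a boundary peak in both lists, 7.77% (6.55 to 9.15%) of 1711 genes with one in the control list only, and 4.38% (3.91 to 4.88%) of 6949 genes with none. Their median lengths were 23632, 15372 and 7468 bp. The order of the shares follows that of the lengths, and the part of length was not tested. Of the 1711 genes with a control boundary peak only, 133 held a peak inside. The 113 genes whose only boundary peak was one described here were left out, and 86 of them held one inside. By the grouping, no gene among the 1711 or the 6949 could have a described peak at an end. A peak at an end can also overlap the gene, so these shares are not independent of the grouping.

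Among other gene classes, 305 of 12727 long noncoding RNA genes (2.40%, 2.14 to 2.68%) had one of the peaks at an end. The share was 0.543% of 9944 pseudogenes, 2.21% of 408 tRNA genes and 0.977% of 1228 miRNA genes. Control peaks stood at an end of 67.7% of protein-coding and 36.8% of long noncoding RNA genes. Long noncoding RNA genes were thus met more often than protein-coding ones, 1.45%, and fewer of them had a control peak. By the rule none of the peaks can overlap a control peak, so these 2 contrasts are not independent.

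A peak at an end or inside was found in 8.51% of all protein-coding genes. No germ cell list lay apart from that share by more than its interval, in which gene length was not taken into account. In the list of meiotic axis, synapsis and recombination genes it was 4 of 51: Stag3, a meiotic cohesin gene (592 bp), Hfm1, a crossover helicase gene (389 bp), Dmc1, the meiotic recombinase gene (282 bp), and Mei1 (265 bp). In the pachytene spermatocyte list it was 1 of 30, Tdrd1 (464 bp), and in the spermiogenesis list 0 of 39. In the piRNA list it was 3 of 26: Tdrd5 (1507 bp), Tdrd12 (505 bp) and Tdrd1, which is also in the pachytene list.

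All of these lay inside the gene and none at an end. Dmc1 had control and shared peaks at its ends, and its inner peak was 26013 bp from a control peak. Stag3 had a control peak at an end and no shared one. In the spermatogonia list it was 5 of 35: Pdx1 at an end (518 bp), and inside Cd9 (404 bp), the de novo methyltransferase gene Dnmt3b (385 bp), Zbtb16 (354 bp), which encodes the stem cell factor PLZF, and Etv5 (261 bp). The intervals of these 5 lists all held 8.51%, with the lowest upper bound, 9.03%, in the spermiogenesis list.

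Lists of somatic cells were shorter. The Sertoli list had 2 of 24, Dhh, a hedgehog ligand gene, with 719 bp at its start, and Gata4, with peaks of 563 and 298 bp inside. Dhh also had control and shared peaks at its ends, and its 719 bp peak was 1763 bp from a control peak. The Leydig list had 2 of 12 (Hsd17b3, 324 bp, and Lhcgr, 216 bp) and the peritubular list 2 of 10 (Lama2, 464 bp, and Mylk, 234 bp). The endothelial list had 4 of 12 (33.3%, 9.93 to 65.1%): Pecam1 (636 bp), Flt1 (557 and 288 bp), Emcn (351 and 193 bp) and Tie1 (255 bp). Its interval lay above 8.51%, all of its peaks were inside genes, and gene length, with which the share rose, was not taken into account. The immune list had 2 of 20 (Itgam, 402 bp, and Mrc1, 197 bp) and the erythroid list 0 of 11. In whole testis cells, a peak in few cells and a weak peak in many cells cannot be told apart, and peaks name no cell type.

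For the lists of early, developmental and H2A.Z exchange genes, the share was below 8.51%, and each interval held 8.51%. The shares were 5% (0.1265 to 24.87%), 5.357% (1.119 to 14.87%) and 3.704% (0.09373 to 18.97%) in that order. Of 20 early genes induced by dissociation, Nr4a1 had a peak (549 bp), and of 56 developmental transcription factors Pax1 (242 bp), Pax2 (311 and 188 bp) and Shh (264 bp) had one. Of 27 genes for H2A.Z and its exchange complexes, Cfdp1 had one, 464 bp, inside the gene. Znhit1, H2az1 and H2az2 had 0 in or within 1 kb of them. Peak lists do not measure expression, so they do not check the knockout.

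Cytoplasmic ribosomal protein genes had 0 of 53, and X-linked multicopy germ cell genes 0 of 31. Olfactory receptors had 2 of 1110 (Olfr1371 and Olfr1512), vomeronasal receptors 2 of 353 (Vmn2r8 and Vmn2r11) and zinc finger genes 15 of 397 (3.78%, 2.13 to 6.15%), among them Zfp112 (342 bp), Zfp800 (326 bp) and Zfp397 (344 bp) at an end. The intervals of the ribosomal, olfactory, vomeronasal and zinc finger lists lay below 8.51%, again with no account of gene length. No peak named for any list had a differential region, where 385 of all 5568 had one, and the named peaks were few.

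The share of peaks with no control counterpart varied among autosomes and was lower on the X. On autosomes it was 18.1% of Znhit1-CKO peaks, from 13.5% on chromosome 7 to 21.6% on chromosome 1. On the X it was 39 of 552 (7.07%, 5.07 to 9.53%), and on the Y 4 of 8. Of the 385 peaks with a differential region, 384 were on autosomes and 1 on the X.

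**Figure D5:**
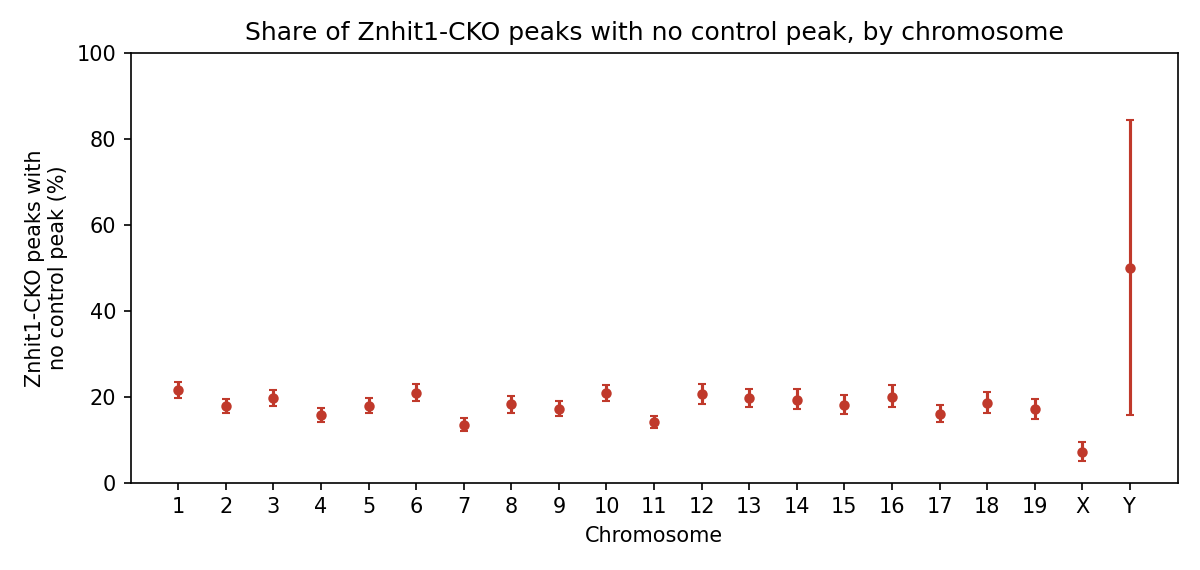
Share of Znhit1-CKO peaks with no control peak, in percent, for each chromosome, with exact 95% intervals as bars. The X, at 7.07%, lies below every autosome, whose shares run from 13.5 to 21.6%, and the Y rests on 8 peaks.

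Of the 39 on the X, 12 lay within 46.5 kb of one another near its distal end (169973605 to 170020134). In this area 8 shared Znhit1-CKO peaks and 9 control peaks were also called, and 0 differential regions. Of the 12, 4 lay in Mid1, which encodes a ubiquitin ligase, and 3 overlapped Erdr1, the widest of them with 1466 bp. The distal ends of the X and Y pair in male meiosis and share sequence, and how reads with more than one placement were handled is not given in the sources used here. The gaps of the 12 to a control peak were 388 to 8719 bp. On the rest of the X, 27 of 532 Znhit1-CKO peaks (5.08%, 3.37 to 7.30%) had no control counterpart.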

How the data were processed

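H2A.Z ChIP-seq was made from testis cells of control and Znhit1-CKO mice, in 2 replicates per genotype. The authors deposited 3 lists of positions (chromosome, start and end, with no height, fold, p-value or other values): control peaks, Znhit1-CKO peaks and differential regions, 24362 of the 24367 regions 400 bp wide. Per the submitters' processing notes, MACS2 2.2.4, Picard 2.20.7, SAMtools 1.9, BWA 0.7.17 and cutadapt 2.5 were used with build mm10. The role of each tool, the cut-offs for peaks and for differential regions, the direction of the latter and whether replicates were pooled were not given in the sources used here. Every peak is a region past a threshold, so its absence from a list is not absence of H2A.Z, and depth per library is unknown.

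Peaks overlapped where they shared 1 bp, and gaps were taken from edge to edge. Gene ends came from a RefSeq gene table (assembly GRCm38.p6), whose 21887 protein-coding genes on the chromosomes used have 2 ends and no strand. Strand and start sites came from the promoter table for 17492 of them, and start sites on chromosome 18 were not used here, nor were exons or repeats. Shares carry exact (Clopper-Pearson) 95% intervals, neighbouring peaks are not independent, and no test was made. The peaks, gene lists and motifs were chosen with earlier results of these data known.

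Genes were named by rule: the 15 widest peaks, the 10 widest with a differential region, the 15 genes (predicted ones left out) with the widest peak at an end and no control or shared peak there, those holding the most peaks, up to 4 per list (peaks at an end first), the farthest peaks, the largest runs, the peaks beside the overlap rule, and Znhit1, H2az1 and H2az2. Ties extended the genes holding the most peaks, 1 gene among them is not reported here, and some further list genes were named after their values were seen. The alternatives were other overlaps, windows, gene sets and minimum widths. Overlaps were checked with bedtools 2.31.1 (0 differing) and on 2000 simulated peaks (0 wrong). The work used scipy 1.17.1, pandas 2.3.3, numpy 2.4.6 and matplotlib 3.10.9 under Python 3.11.15.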

Additional observations from a re-analysis of the deposited data

How the results depend on the processing

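Of 28 alternatives, 10 moved a value by less than its counting interval or, for a count of genes, by less than 1.5 times, and 18 moved it further. The share of Znhit1-CKO peaks with no control counterpart was 39.2% when peaks had to share 50% of each other, 16.3% where a control peak within 500 bp also counted and 15.3% within 1000 bp. It was 12.9% among peaks of at least 300 bp and 5.66% among those of at least 500 bp. Their median width was 396 bp under the 50% overlap. The share within reach of a protein-coding gene end was 3.50% with a window of 500 bp, 9.07% with 2000 bp, 12.45% with the ends of all annotated genes, 6.22% for peaks of at least 500 bp and 4.38% for peaks over 500 bp from a control peak. The share overlapping a gene, 41.9% for protein-coding genes, was 54.45% with all annotated genes and 44.05% for peaks of at least 500 bp. The median gap was 9664.5 bp between centres and 9576.5 bp for peaks of at least 500 bp. A differential region within 500 bp was found for 7.92%, and one overlapping for 11.7% of peaks of at least 500 bp. The X share was 3.32% for peaks of at least 500 bp. The wider windows, looser overlaps and larger gene sets change these values by construction; for the minimum widths the cause was not tested. Leaving out the Grm4 stretch (6.73% with a differential region) or the X end (5.08%) was chosen after seeing the data, and changed neither value by more than its interval. For the X this was at the edge: the share fell from 7.065% to 5.075%, where the lower bound is 5.072%. No paired analysis was possible because there was 1 list per genotype, and leaving out a replicate was not run for the same reason. Depth and peak height were not used here, so a weak peak and a strong one count alike.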
